A study of Rattus norvegicus with 24 samples.

Results

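The genes described here are 10 genes of the choroid plexus, the epithelium of the brain ventricles that secretes cerebrospinal fluid: Ttr, Prlr, Kl, Folr1, Aqp1, Clic6, Slc4a5, Enpp2, Igf2 and Sostdc1. Members were taken as the probe sets of an Affymetrix rat expression array that carry one of these symbols and no other. Of the 10 genes, 8 had such a probe set, with 14 probe sets in all, out of 14218 genes and 31099 probe sets measured. Clic6 and Slc4a5 had none listed and were not analysed here. The 14 probe sets all passed the filter on low signals, which kept 27035 probe sets (signal not below its array's 20th percentile on at least 3 of 24 arrays).

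Total RNA of tissue labelled midbrain was measured on 24 arrays of adult female Long–Evans rats. Of these, 12 came from gonadally intact rats in proestrus, 6 from ovariectomized (OVX) rats and 6 from ovariectomized and adrenalectomized (OVX/ADX) rats, and the study primed the rats of both surgical groups with estradiol benzoate before testing. Each group was divided equally into arrays with the label paced mated (the female controlled her contacts with a male through a partition) and chamber-exposed (she was placed in the clean apparatus without mating). The intact arrays form 2 sets by title, 6 named with numbers (number-named) and 6 named Intact-1 to Intact-6 (Intact-named), and no source states whether the same rats gave both sets. The methods describe fewer intact rats on arrays than there are intact arrays, so a rat may be in both sets, and a standard error or p over arrays of both sets may count it more than once. P-values measure the spread between these samples.

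Values are log2 signals made by the authors with RMA. They were taken here as normalized in 3 separate runs, inferred from the lowest signal of each array. The number-named arrays had lowest signals of 3.58 to 3.65, the Intact-named and OVX arrays 2.296 to 2.39 (the shared run), and the OVX/ADX arrays 3.38 to 3.43. Levels were therefore compared between runs as percentiles within the array or after quantile normalization of the 24 arrays, with no test. Raw signals and slopes are given by set, and differences between runs in them were not tested. The label midbrain was checked against marker lists on the quantile-normalized scale. The mean level of 11 markers of midbrain dopamine neurons ranged from 8.13 to 9.24 on the number-named arrays from 6.67 to 7.37 on the Intact-named, from 6.70 to 7.62 on the OVX and from 7.71 to 8.59 on the OVX/ADX arrays. The mean of 11 markers of cortex and hippocampus ranged from 7.12 to 8.17 on the number-named, from 9.06 to 9.305 on the Intact-named, from 8.76 to 9.297 on the OVX and from 7.06 to 7.23 on the OVX/ADX arrays. All 12 arrays of the shared run were thus lower in the dopamine markers and higher in the cortical ones than all other arrays, against their midbrain label. The tissue thus differed in regional markers between runs, and the part of this in any level compared across runs was not tested.

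The choroid plexus hangs into the ventricles as folds of stroma covered by a tight epithelium, which makes cerebrospinal fluid and secretes carrier proteins and growth factors into it. Its best known product is transthyretin (Ttr), which carries thyroid hormone and retinol-binding protein. The same epithelium is one of the sites in the rat brain richest in the prolactin receptor (Prlr), which has been studied as a route for circulating prolactin into cerebrospinal fluid. In dissected brain tissue the amount of plexus that comes along can differ from piece to piece, and in bulk RNA fewer cells of a type and less RNA per cell cannot be told apart.

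Because the question was whether Prlr followed the other members, the promoters of Prlr and of Ttr are shown for reference. The sequences are from RefSeq on rat build GRCr8, from 250 bases before to 50 after the annotated start, 5′ to 3′, in lower case with capitals for a match to 1 of 3 motifs searched on both strands: TAATCC (the core bound by OTX factors such as Otx2), CCAAT and TATAAA. Ttr lies at chr18:12216684-12225972 and its window at chr18:12218508-12218807, plus strand. Prlr lies at chr2:60861391-61051883, and 2 of its starts were given, with windows at chr2:60861515-60861814 and chr2:60909409-60909708, plus strand.
Ttr: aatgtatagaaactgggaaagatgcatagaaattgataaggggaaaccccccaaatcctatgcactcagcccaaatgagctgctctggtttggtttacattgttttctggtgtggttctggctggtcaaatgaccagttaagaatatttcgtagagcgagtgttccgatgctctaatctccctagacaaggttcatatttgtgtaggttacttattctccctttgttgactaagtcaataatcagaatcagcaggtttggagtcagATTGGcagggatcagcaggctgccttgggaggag
Prlr, first start: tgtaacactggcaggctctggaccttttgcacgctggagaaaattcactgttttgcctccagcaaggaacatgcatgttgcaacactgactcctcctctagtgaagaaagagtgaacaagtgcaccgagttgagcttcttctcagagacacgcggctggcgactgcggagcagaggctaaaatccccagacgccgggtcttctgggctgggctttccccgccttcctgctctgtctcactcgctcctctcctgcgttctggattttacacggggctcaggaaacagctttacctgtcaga
Prlr, second start: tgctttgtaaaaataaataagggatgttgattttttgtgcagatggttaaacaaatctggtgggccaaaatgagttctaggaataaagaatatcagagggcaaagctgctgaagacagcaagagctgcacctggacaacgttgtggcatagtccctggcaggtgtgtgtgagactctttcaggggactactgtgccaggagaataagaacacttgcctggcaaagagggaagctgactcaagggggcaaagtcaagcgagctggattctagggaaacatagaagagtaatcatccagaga
The capitals in the Ttr window mark a CCAAT motif read on the minus strand, which begins at base 17 after the start. Neither Prlr window held any of the 3 motifs, and TAATCC was in none of the 8 windows found for 6 members (Ttr, Prlr, Kl, Aqp1, Slc4a5 and Igf2). Of 33469 windows of this length in the table, 7.17% held TAATCC, 37.5% held CCAAT and 14.2% held TATAAA. The Aqp1 window held the last of these, at base −30.

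Ttr had the largest SD of the measured members in the number-named and OVX/ADX sets. Prlr had it in the Intact-named set and Sostdc1 in the OVX set. Among the number-named arrays, the signal was 12.39, 7.98 and 8.49 on the paced mated 2543, 2538 and 2531, and 7.64, 7.92 and 13.71 on the chamber-exposed 2526, 2536 and 2539. Among the Intact-named arrays, Ttr was 14.51, 11.02 and 12.45 on the paced mated arrays Intact-1, Intact-3 and Intact-5 and 14.50, 10.89 and 13.74 on the chamber-exposed arrays Intact-2, Intact-4 and Intact-6. In both intact sets a high and a low array stood under each mating label, so the groups overlapped. On the OVX arrays it was 13.98, 10.22 and 13.82 (OVX-1, OVX-3 and OVX-5, paced mated) and 14.45, 14.34 and 14.53 (OVX-2, OVX-4 and OVX-6, chamber-exposed). All 3 chamber-exposed OVX arrays lay above all 3 paced mated ones, and OVX-3 stood far below the rest. On the OVX/ADX arrays Ttr was 9.05, 10.09 and 9.83 (4123, 4125 and 2541, paced mated) and 7.37, 7.78 and 9.33 (4124, 4126 and 2530, chamber-exposed), with the lowest values on the chamber-exposed side and array 2530 between the paced mated ones.

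The spread of Ttr was thus 67.2-fold within the number-named set, 12.2-fold within the Intact-named set, 19.8-fold within the OVX set and 6.61-fold within the OVX/ADX set. Its SD of 2.65 (n = 6) in the number-named set was larger than that of 99.99% of the probe sets kept, whose median SD there was 0.096. In percentiles of the array, Ttr ran from 54.4 to 99.9 on the number-named arrays and from 56.0 to 91.9 on the OVX/ADX arrays. It was at 94.0 or above on each Intact-named array and at 89.6 or above on each OVX array.

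**Figure D1:**
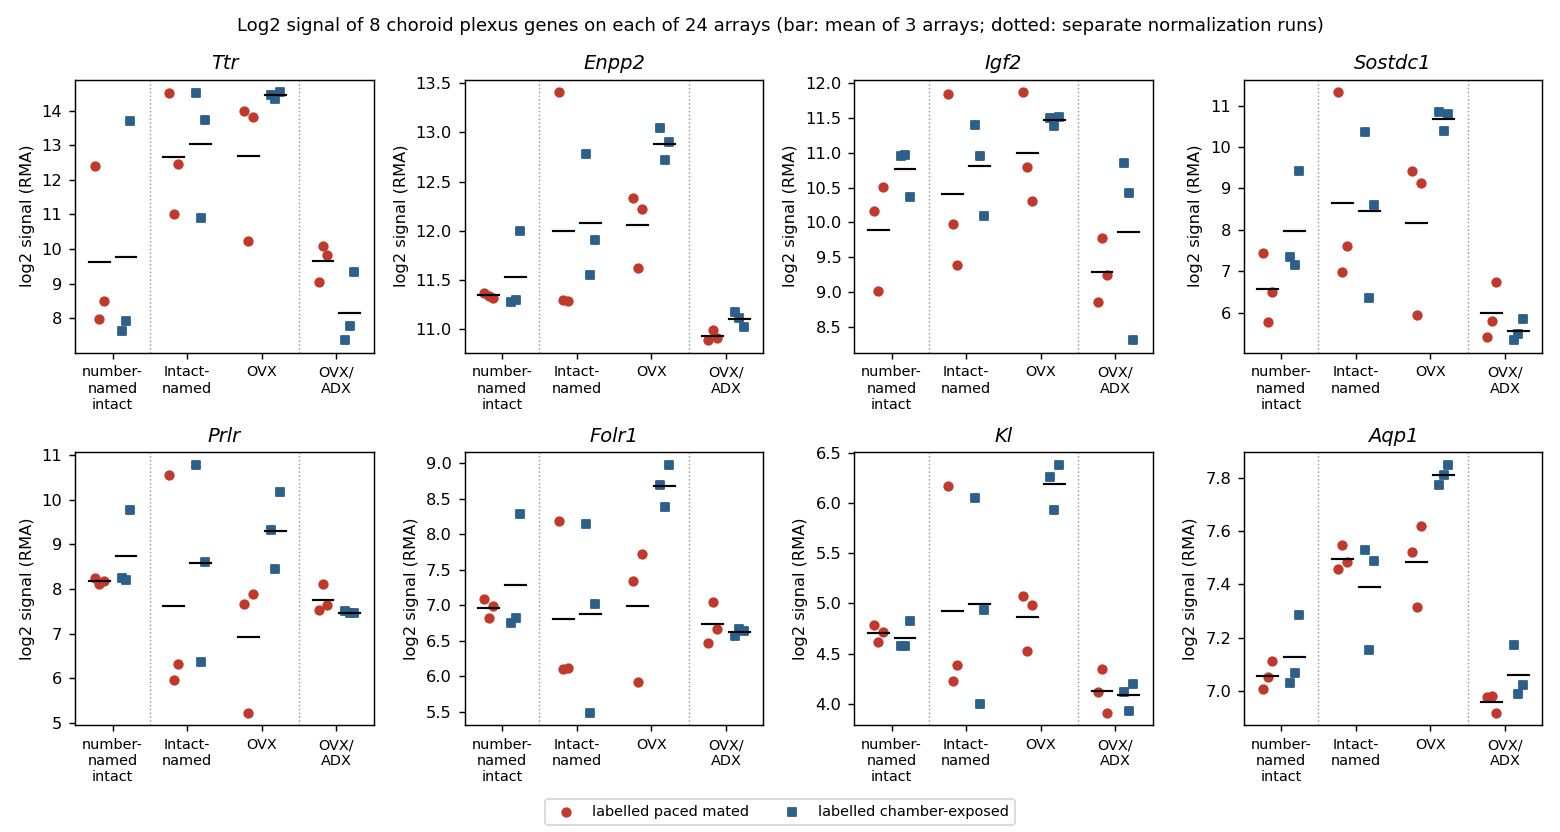
Log2 signal (RMA, y axis) of the 8 measured members on each of 24 arrays, by array set (x axis), with circles for arrays labelled paced mated, squares for those labelled chamber-exposed and bars for the means of each 3; dotted lines separate the normalization runs. On the OVX arrays the squares lie above the circles for 7 members, all but Igf2, and array OVX-3 is the lowest circle for Ttr (10.22), Prlr (5.22) and Sostdc1 (5.95).

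Enpp2, Igf2 and Sostdc1 encode other secreted proteins. Enpp2 (autotaxin) makes lysophosphatidic acid and is also made by oligodendrocytes. Its signal was at the 95.7th percentile of the array or above throughout. On the Intact-named arrays it ranged from 11.28 to 13.41 (highest on Intact-1) and on the OVX arrays from 11.62 to 13.04. On the number-named arrays it was 11.28 to 11.37 on 5 arrays and 11.998 on array 2539, so that only that array stood out. On the OVX/ADX arrays it stayed between 10.88 and 11.17.

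Igf2 (insulin-like growth factor 2) is made by the plexus and also by the meninges. Its main probe set, the one with the highest mean of the gene's 4, ranged from 9.01 to 10.97 on the number-named arrays, from 9.39 to 11.85 on the Intact-named, from 10.31 to 11.87 on the OVX and from 8.31 to 10.85 on the OVX/ADX arrays. Its 2 highest Intact-named arrays, Intact-1 and Intact-2, were also the 2 highest for Ttr. On the number-named arrays it was highest on 2536 and 2526, where Ttr was low, and on the OVX/ADX arrays Igf2 was highest, at 10.85, on array 4124, where Ttr was lowest.

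Sostdc1 encodes a secreted antagonist of bone morphogenetic protein and Wnt signals. It was 7.45, 5.76 and 6.51 on the paced mated and 7.36, 7.15 and 9.42 on the chamber-exposed number-named arrays (in the array order given for Ttr). On the Intact-named arrays it was 11.33, 6.98 and 7.61 on the paced mated and 10.38, 6.36 and 8.60 on the chamber-exposed. These groups overlapped, with Intact-1 and Intact-2 high as for Ttr. On the OVX arrays it was 9.43, 5.95 and 9.13 on the paced mated and 10.85, 10.39 and 10.81 on the chamber-exposed, without overlap. On the OVX/ADX arrays it ranged from 5.33 to 6.73, with array 2541 the highest.

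Prlr, Folr1 and Kl encode proteins of the epithelial membrane. Prlr was measured by 3 probe sets, and the one with the highest mean is given first. On the number-named arrays it was 8.24, 8.12 and 8.17 on the paced mated and 8.24, 8.19 and 9.77 on the chamber-exposed arrays. Array 2539 alone was raised, and array 2543, with the second highest Ttr of that set, was level with the others. On the Intact-named arrays Prlr was 10.56, 5.95 and 6.33 on the paced mated and 10.78, 6.36 and 8.60 on the chamber-exposed arrays, a 28.3-fold spread with both labels at both ends. On the OVX arrays it was 7.65, 5.22 and 7.89 on the paced mated and 9.32, 8.44 and 10.16 on the chamber-exposed. The groups did not overlap, and OVX-3 was again lowest. On the OVX/ADX arrays it was 7.53, 8.10 and 7.63 on the paced mated and 7.50, 7.46 and 7.45 on the chamber-exposed, here with the paced mated arrays higher by a narrow margin.

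In percentiles of the array, Prlr was between 61.6 and 85.3 on the number-named arrays and between 57.0 and 67.9 on the OVX/ADX arrays. It ran from 33.7 to 93.3 on the Intact-named and from 22.3 to 89.0 on the OVX arrays. The arrays of the shared run thus held both the lowest and the highest Prlr ranks of the series.

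Folr1, the folate receptor through which the plexus takes folate into cerebrospinal fluid, ranged from 6.74 to 8.29 on the number-named arrays (highest on 2539), from 5.48 to 8.19 on the Intact-named, from 5.91 to 8.98 on the OVX and from 6.47 to 7.04 on the OVX/ADX arrays. Kl (klotho), a co-receptor for fibroblast growth factor 23, was the dimmest member, with median percentiles of 8.04 (number-named set) and 4.5 (OVX/ADX set). Its highest percentiles there, 10.9 on array 2539 and 8.1 on array 4125, were below the limit of the filter on low signals. Kl passed that filter only through arrays of the shared run. The number-named and OVX/ADX values of Kl used in the correlations thus lie under that limit. On the number-named arrays Kl lay between 4.57 and 4.83. On the Intact-named arrays it ranged from 3.996 to 6.17 and on the OVX arrays from 4.53 to 6.38. Its high arrays there were those of Prlr and Folr1.

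Aqp1, the water channel of the apical membrane, is also expressed outside the plexus. Its main probe set spanned between 1.19-fold (OVX/ADX) and 1.45-fold (OVX) within a set, and ranged from 6.7996 to 7.86 over the 24 arrays after quantile normalization. Its second probe set, of lower mean, ranged from 4.66 to 7.67 on the Intact-named arrays and from 5.26 to 7.92 on the OVX arrays. The probe sets of this gene therefore disagreed in how much they moved, and the second is named beside the first where this matters.

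After quantile normalization, Ttr averaged 12.98 ± 1.56 (SD, n = 12) on the arrays of the shared run and 9.38 ± 2.03 (SD, n = 12) on the other 12. Sostdc1 averaged 8.93 ± 1.80 and 6.49 ± 1.10, and Kl 5.35 ± 0.79 and 4.03 ± 0.27. Prlr differed by 0.03, with 8.08 ± 1.80 on the shared run and 8.05 ± 0.55 on the others. In none of the 8 members did the 12 arrays of the shared run lie all above or all below the others, and 3 of 8 were over 2-fold higher and 0 over 2-fold lower by their means. Among the 27035 probe sets kept, 2326 were over 2-fold higher and 2538 over 2-fold lower, and 5687 lay all higher and 5454 all lower on the shared run.

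Pooled over the array sets, Prlr followed most other members from array to array, but this did not hold in each set alone, as given below. Each gene was centred on the mean of its array set, so that differences between runs drop out, and Prlr was correlated with each of the 7 other measured members over the 24 arrays, with two-sided permutation of arrays within sets and Benjamini-Hochberg adjustment over the 7 relations. The smallest p that 100000 permutations can give is 1e-05. All genes of an array share its RNA and hybridization, and a relation between them says nothing of regulation. The centred values were not scaled, so the sets where Prlr spread most weigh most in r. The SD of Prlr was 2.20 in the Intact-named and 1.70 in the OVX set, against 0.65 in the number-named and 0.25 in the OVX/ADX set (n = 6 each).

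With Ttr, Prlr had r = 0.699 (permutation p = 1e-05, adjusted 2.33e-05) and rho = 0.782 (permutation p = 1e-05, adjusted 2.33e-05), and r = 0.596 without arrays 2539 and OVX-3, the farthest in Ttr. With only 1 intact set in the fit, r was 0.662 (without the Intact-named set) and 0.847 (without the number-named set). Folr1 was the closest member to Prlr, with r = 0.961 (permutation p = 1e-05, adjusted 2.33e-05) and rho = 0.956 (permutation p = 1e-05, adjusted 2.33e-05), and r = 0.934 without OVX-3 and Intact-1. Kl had r = 0.935 (permutation p = 2e-05, adjusted 3.5e-05) and rho = 0.85 (permutation p = 5e-05, adjusted 8.75e-05), with r = 0.874 without Intact-1 and Intact-2. The relation with Folr1 was thus tighter than that with Ttr in this measure, a difference that was not tested.

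Enpp2 had r = 0.931 with Prlr (permutation p = 5e-05, adjusted 7e-05) and rho = 0.859 (permutation p = 7e-05, adjusted 9.8e-05), with r = 0.915 without Intact-1 and Intact-2. Sostdc1 had r = 0.912 (permutation p = 1e-05, adjusted 2.33e-05) and rho = 0.857 (permutation p = 1e-05, adjusted 2.33e-05), with r = 0.843 without OVX-3 and Intact-1. The main probe set of Aqp1 had r = 0.592 (permutation p = 0.0079, adjusted 0.00922) and rho = 0.542 (permutation p = 0.011, adjusted 0.0129), and r fell to 0.3 without OVX-3 and Intact-4, so this relation rested on those arrays. The second Aqp1 probe set had r = 0.9 with Prlr.

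Igf2 was the member that followed least. It had r = 0.437 with Prlr (permutation p = 0.0474, adjusted 0.0474), rho = 0.341 (permutation p = 0.114, adjusted 0.114) and r = 0.484 without 2538 and 2530. Centred on the 8 groups of set and mating label, which removes any mean difference between mating labels too, the adjusted p was 0.177 for Igf2 (r = 0.403) and 0.0573 for Aqp1 (r = 0.551). The r of Ttr, Kl, Folr1, Enpp2 and Sostdc1 with Prlr lay between 0.687 (Ttr) and 0.969 (Folr1) in that setting.

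**Figure D2:**
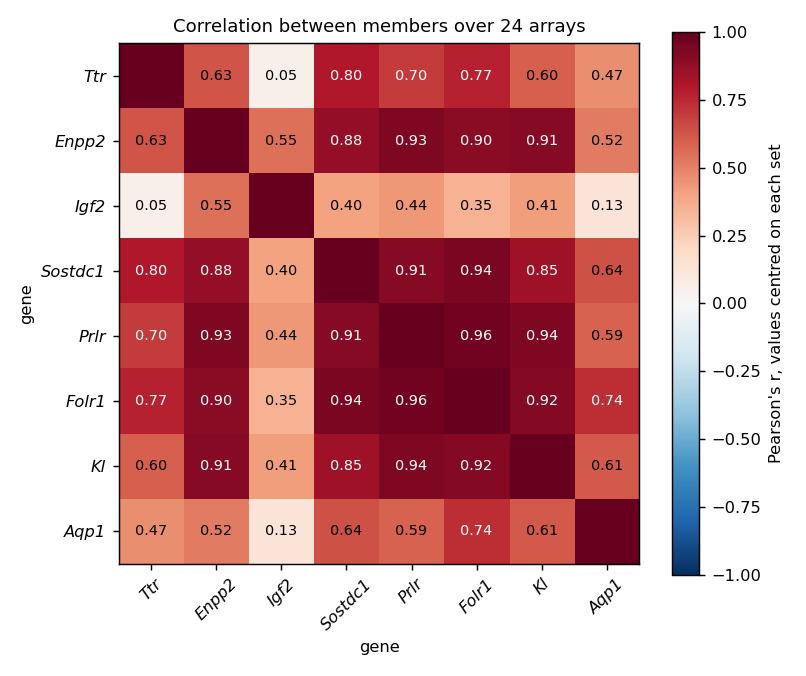
Pearson's r between each pair of the 8 measured members over 24 arrays, each gene centred on its array set; colour and printed value give r, from blue (−1) to red (1), and both axes list the genes. Prlr, Folr1, Kl, Enpp2 and Sostdc1 form a block of high values, while the row of Igf2 is pale, from 0.05 with Ttr upwards.

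The members other than Prlr were measured against Ttr in the same way. Of 6 relations, Sostdc1 had the highest r, 0.803 (permutation p = 1e-05, adjusted 2e-05; rho = 0.829, permutation p = 1e-05, adjusted 2e-05), and 0.679 without arrays 2539 and OVX-3. Folr1 had r = 0.773 (permutation p = 1e-05, adjusted 2e-05; rho = 0.85, permutation p = 1e-05, adjusted 2e-05), and 0.637 without those arrays. The r of Prlr with Ttr, 0.699, therefore lay below those of Sostdc1 and Folr1 and above those of the rest.

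Enpp2 had r = 0.626 with Ttr (permutation p = 0.00028, adjusted 0.00042; rho = 0.699, permutation p = 0.00014, adjusted 0.00021), and 0.492 without those arrays. Kl had r = 0.601 (permutation p = 1e-05, adjusted 2e-05; rho = 0.723, permutation p = 1e-05, adjusted 2e-05), and 0.597 without them. For Aqp1 r was 0.468 (permutation p = 0.0211, adjusted 0.0254; rho = 0.354, permutation p = 0.103, adjusted 0.124), which fell to 0.0725 without them, so that it rested on those arrays. Igf2 had the lowest r with Ttr, 0.0546 (permutation p = 0.804, adjusted 0.804; rho = 0.0983, permutation p = 0.661, adjusted 0.661), and −0.0114 without them.

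The relation of Prlr with Ttr differed in form between the array sets, a difference that was not tested. In the Intact-named set r was 0.935 (exact permutation p = 0.0278 over 6 arrays, adjusted 0.0389 over 7 relations; rho = 0.771, exact p = 0.103, adjusted 0.12), with a slope of 1.25 log2 units of Prlr per log2 unit of Ttr, and r was 0.993 without Intact-4 and Intact-3. In the OVX set r was 0.905 (exact permutation p = 0.00278, adjusted 0.00648; rho = 0.943, exact p = 0.0167, adjusted 0.0292), with a slope of 0.93, and r was 0.878 without OVX-3 and OVX-6. The further Prlr probe sets had slopes of 0.28 and 0.51 in the Intact-named set and of 0.21 and 0.43 in the OVX set, so that how far Prlr moved per unit of Ttr depended on the probe set.

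In the number-named set r was 0.763 (exact permutation p = 0.0431, adjusted 0.109; rho = 0.486, exact p = 0.356, adjusted 0.587), with a slope of 0.19, and r turned to −0.49 without 2539 and 2543. There the relation rested on array 2539, since 2543 had raised Ttr and no raised Prlr. In the OVX/ADX set r was 0.637 (exact permutation p = 0.139, adjusted 0.486; rho = 0.6, exact p = 0.242, adjusted 0.622), with a slope of 0.14, and r was 0.825 without 4124 and 4126. On the OVX/ADX arrays Ttr did not exceed 10.09 and Prlr varied little.

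Of the 7 relations of Prlr, 6 passed at an adjusted p of 0.00648 (exact permutation) in the OVX set, all but Igf2, and 5 passed in the Intact-named set by r, where 0 passed by rho (adjusted p 0.12 or more). Only that with Sostdc1 passed in the number-named set (r = 0.89, exact permutation p = 0.00139, adjusted 0.00972; rho = 1, exact p = 0.00278, adjusted 0.0194; r = 0.929 without 2539 and 2538), and none passed in the OVX/ADX set. The further Prlr probe sets had r = 0.554 and 0.635 with Ttr over the 24 arrays and r = 0.84 and 0.844 with the main Prlr probe set.

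**Figure D3:**
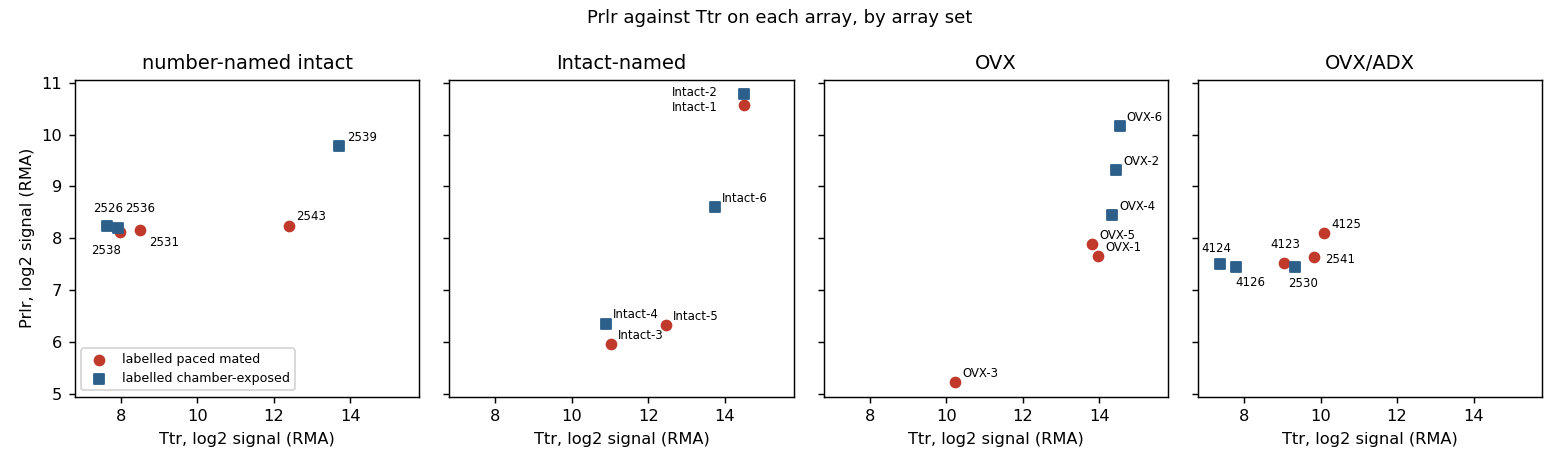
Log2 signal (RMA) of Prlr (y axis) against that of Ttr (x axis) in the 4 array sets, each point an array named beside it, with circles for paced mated and squares for chamber-exposed. In the Intact-named and OVX sets Prlr climbs with Ttr, from 5.22 on OVX-3 to 10.16 on OVX-6, while on the number-named arrays only 2539 (9.77) stands apart and on the OVX/ADX arrays Prlr stays between 7.45 and 8.10.

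The genes whose set-centred values were most like those of Prlr, by r over the 24 arrays among 13078 genes with members left out of the naming, were Slco1a5, an organic anion and thyroid hormone transporter (r = 0.97), Cltrn, an amino acid transport regulator (0.969), Mfrp, a frizzled-related membrane protein (0.966), Cldn2, a pore-forming claudin of tight junctions (0.949), F5, coagulation factor V (0.94), Glycam1 (0.938), Pla2g5, a secreted phospholipase (0.936), Mdk, the growth factor midkine (0.931), Steap1 (0.929) and Col8a1, a short-chain collagen (0.926). These are descriptions, with no test. Of the 50 genes most like Prlr, members included, 4 were among the 7 other members and 13 among 37 further choroid plexus genes of a list that leaves out the members.

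Over that list, 18 of 37 genes (48.6%) had r above 0.7 with Prlr, against 0.703% of all genes, and the median r was 0.686 against 0.021 for all genes. With Ttr, 4 of 37 (10.8%) had r above 0.7, against 0.0535% of all genes, and the median was 0.357. The list was chosen with earlier results of these data known, so these shares are a description and no separate evidence. The closest to Ttr were F5 (0.836), Pip5k1b (0.758), Mfrp (0.746), Cldn2 (0.743), Slco1a5 (0.737), Cltrn (0.674), Atp2b3 (0.67), Sytl3 (0.656), Pla2g5 (0.649) and Kcne2, a potassium channel subunit (0.642). Of these, F5, Mfrp, Cldn2, Slco1a5, Cltrn and Pla2g5 were also among the 10 named for Prlr.

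Among the list's 6 genes of highest mean signal, 1 had r above 0.7 with Prlr, Col9a3 (0.727). It was followed by Cdr2 (0.664), Htr2c, the serotonin 2C receptor (0.61), Spint2, a protease inhibitor (0.561), Slc13a4, a sulfate transporter (0.441), and Slc22a8, an organic anion transporter (0.311). The r with Prlr over the list ran from −0.258 (Car12, a carbonic anhydrase) to 0.97 (Slco1a5).

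Other genes of prolactin signalling had low correlations with the receptor. The 13 genes were prolactin, its kinase, STAT factors, their inhibitors, the adaptor Grb2, the phosphatase Ptpn11 and the related growth hormone and its receptor. Their median r with Prlr was −0.039, with a range from −0.426 (Jak2, the kinase) to 0.425 (Cish, a feedback inhibitor), and 0 of 13 exceeded 0.7. Prl itself had r = 0.049. Over 15 genes of cerebrospinal fluid ion transport the median was −0.004, with 1 gene above 0.7, the anion exchanger Slc4a2 (0.799).

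Markers of neighbouring cells were set beside these values. Most markers of ependyma, the ciliated lining of the ventricles, moved with Prlr and Ttr. The median r of 10 ependymal markers was 0.619 with Prlr (range −0.0989 to 0.793) and 0.479 with Ttr (range −0.32 to 0.574). For Prlr they were led by Dynlrb2 (0.793) and Foxj1, the master factor of motile cilia (0.762). Their median r was lower with Igf2 (0.384) and Aqp1 (0.327). Meningeal markers did not move with Prlr or Ttr in this way, with a median r over 17 genes of −0.119 with Prlr and −0.248 with Ttr. With Igf2 the same 17 genes had a median r of 0.739, with 10 above 0.7, led by Igfbp2 (0.931). The 37 further choroid plexus genes had a median r of 0.505 with Igf2, with 9 above 0.7, led by Slc13a4 (0.965). The median r of 12 anterior pituitary genes was 0.049 with Prlr. The part of ependyma or meninges in the members' values was not tested.

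**Figure D4:**
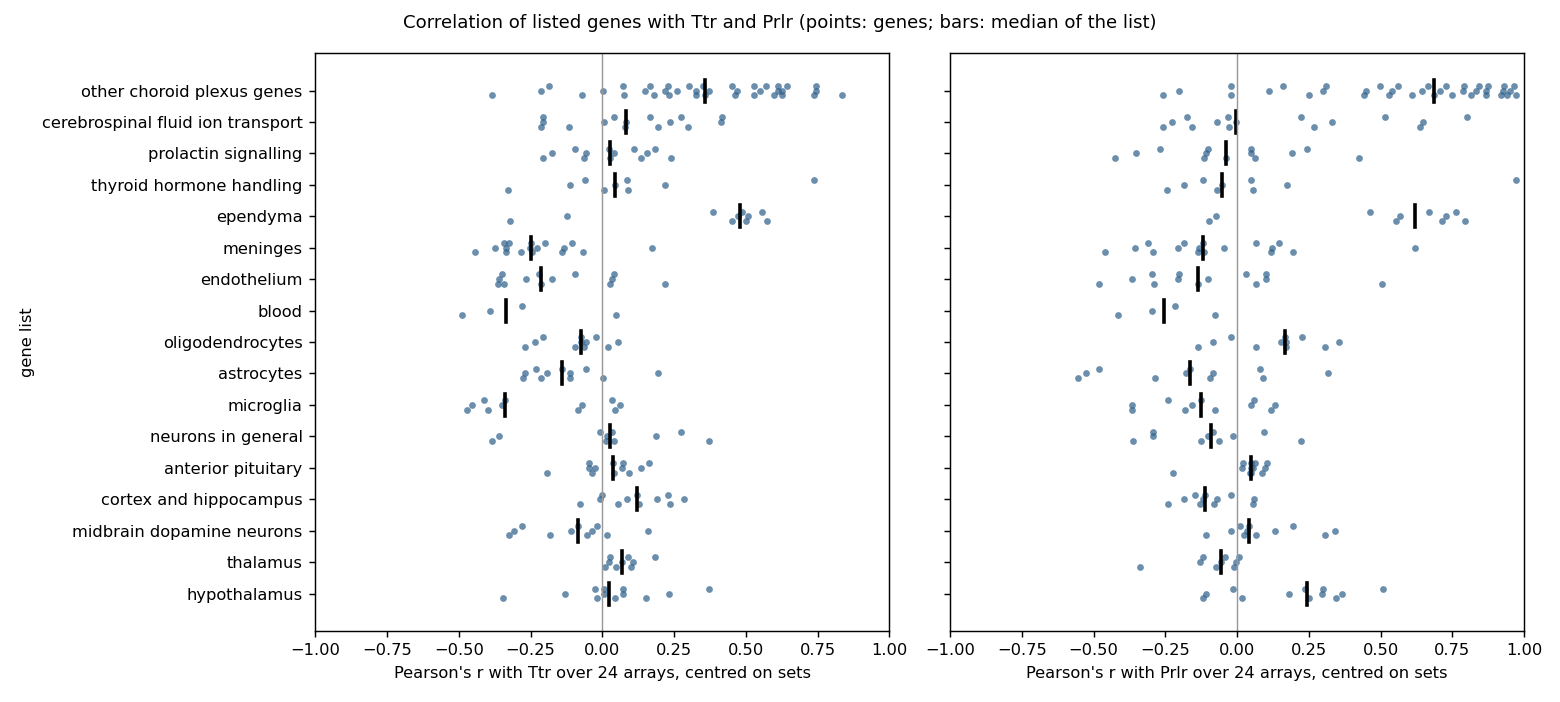
Pearson's r over 24 arrays, centred on array sets, of each gene of 17 lists (y axis) with Ttr (left) and with Prlr (right); points are genes and black bars the median of a list. The further choroid plexus genes (median 0.686) and ependyma (median 0.619) lie to the right for Prlr, and the medians of the other 15 lists lie between −0.255 (blood) and 0.243 (hypothalamus).

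Mating was compared within each array set, as paced mated minus chamber-exposed on the log2 scale by the deposited labels, with limma and Benjamini-Hochberg adjustment over the 27035 probe sets. No member passed an adjusted p of 0.05 in any comparison. In OVX rats, all 8 measured members were lower on the paced mated arrays, with a median difference of −1.51 (range −2.51 to −0.33), against a median of 0.01 over all genes. For 7 of 8, all but Igf2, every paced mated array lay below every chamber-exposed array, which held for 3.5% of all probe sets kept. Of the 8, 6 had an unadjusted p under 0.05, against 2.42% of all probe sets (654). The members moved together over these arrays, with r to Prlr from 0.905 (Ttr) to 0.984 (Folr1) for all but Igf2 (0.442). Counts of members, here and below, are therefore not counts of independent results, and their excess over the shares of all probe sets was not tested. After adjustment limma called 0% of the probe sets (0 of 27035) in OVX rats, and a test of each probe set without limma's moderation called 0 too.

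The largest of these differences was in Sostdc1, from 10.68 (mean, n = 3) on the chamber-exposed to 8.17 on the paced mated OVX arrays, a difference of −2.51 (5.71-fold; standard error, SE, 0.84; limma adjusted p = 1). Prlr differed by −2.39 (5.23-fold; SE 0.74; limma adjusted p = 1), with a 95% interval from −4.13 to −0.65. Its further probe sets differed by −0.60 and −1.52. All Prlr probe sets thus ran the same way, and none passed.

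Ttr differed by −1.77 in OVX rats (SE 0.92; limma adjusted p = 1), and by −0.54 without OVX-3, the array that decided its size. Folr1 differed by −1.69 (3.23-fold; SE 0.44) and Kl by −1.33 (2.51-fold; SE 0.17; limma adjusted p = 0.776), the smallest p of the members. Kl was dim on the paced mated arrays OVX-1, OVX-3 and OVX-5, at percentiles of 20.6, 14.2 and 19.2 within the array. On the chamber-exposed OVX-2, OVX-4 and OVX-6 it was at 37.6, 32.4 and 39.6. The p of Kl thus rests partly on signals near the floor. Enpp2 differed by −0.83 (1.78-fold; SE 0.19) and Aqp1 by −0.33 (1.25-fold; SE 0.10), the second Aqp1 probe set by −1.53. Igf2 differed by −0.48 (SE 0.35), with overlapping groups. With 3 arrays against 3, an exact permutation test cannot give a two-sided p under 0.1, and 7 members were at p = 0.1.

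Without OVX-3, all 8 members were still lower on the paced mated arrays, with a median of −0.88 (range −1.54 to −0.24). Of the 37 further choroid plexus genes, 32 were lower on the paced mated OVX arrays, with a median of −0.50, 24 at an unadjusted p under 0.05 and 20 without overlap of the groups. None passed an adjusted p of 0.05. F5 differed by −2.74, Cldn2 by −2.25, Mfrp by −2.21 and Slco1a5 by −1.92. These genes were named for being most like Prlr over the 24 arrays, the OVX arrays included, so their sizes are no separate evidence. The median of the 10 ependymal markers was −0.12 and that of the 17 meningeal markers 0.12 in this comparison, while 11 of 11 oligodendrocyte markers were higher on the paced mated arrays, by a median of 0.16. The summed level of the further choroid plexus genes, as a mean of quantile-normalized values, was 6.63 to 7.39 on the paced mated and 7.52 to 7.77 on the chamber-exposed OVX arrays, whereas that of meninges was 7.23 to 8.53 and 7.58 to 8.13. A list of thyroid hormone handling genes, which shares Slco1a5 with the plexus list, was at 8.40 to 8.44 and 8.58 to 8.83. The plexus list was therefore not the only list whose levels separated the labels, and the meningeal markers overlapped. How the amount of plexus in each piece entered the differences of Prlr was not tested.

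In intact rats the direction of the members turned with single arrays. On the number-named arrays 7 of 8 were lower on the paced mated side, with a median of −0.25, and limma called 12 of all probe sets (0.0444%), no member among them, and 2 without array 2543. Without array 2539 limma called 58, 3 of 8 members were lower and the median was 0.03, and Ttr went from −0.14 to 1.84. Igf2 differed by −0.86 (SE 0.36; limma adjusted p = 0.523) beside a median of −0.52 over the meningeal markers, 16 of 17 of which were lower. Prlr differed by −0.56 (SE 0.38; limma adjusted p = 0.695), and by −0.04 without 2539. In the same comparison 12 of 12 anterior pituitary genes were lower on the paced mated arrays, by a median of −2.01, and 11 of 11 midbrain dopamine markers, by a median of −0.39, and their part in the members' differences was not tested. The paper lists Igf2 and pituitary genes such as Gh1 and Prl as higher in paced mated than in chamber-exposed intact rats. By the deposited labels these genes ran the other way on the number-named arrays, and the reason was not tested.

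On the Intact-named arrays 6 of 8 members were lower, with a median of −0.08, and limma called 4 probe sets (0.0148%), again none of a member, with 1 without Intact-2 and 15 without Intact-1. Prlr differed by −0.96 (SE 1.45; limma adjusted p = 0.908) and Ttr by −0.38 (SE 1.11; limma adjusted p = 0.957), each with both labels at both ends of the range. Leaving out 1 array moved the count of lower members between 1 (without Intact-2) and 8 (without Intact-4). Over both sets of intact rats, with the set as a term, Prlr differed by −0.76 (SE 0.82, exact permutation p = 0.38 within sets, where 0.005 could be reached, if the arrays are of different rats), and limma called 0% of the probe sets, with 2086 at an unadjusted p under 0.05 and 0 by the plain test.

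In OVX/ADX rats, 5 members were higher and 3 lower on the paced mated arrays, with a median of 0.08 (range −0.57 to 1.502), though 5 were lower without array 4125, and limma called 0% of the probe sets (667 at an unadjusted p under 0.05, 0 by the plain test). Ttr differed by 1.502 (SE 0.51; limma adjusted p = 1), with array 2530 overlapping. Prlr differed by 0.29 (SE 0.14; limma adjusted p = 1), with every paced mated array above every chamber-exposed one, as for 2.69% of all probe sets. Its further probe sets differed by −0.06 and 0.18, both with overlap. Aqp1 and Enpp2 lay all below, by −0.10 and −0.17, as for 4.1% of all probe sets. The spread over these 6 arrays was 1.57-fold for Prlr, 1.49-fold for Folr1 and 1.19-fold for Aqp1, against 5.84-fold for Igf2.

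**Figure D5:**
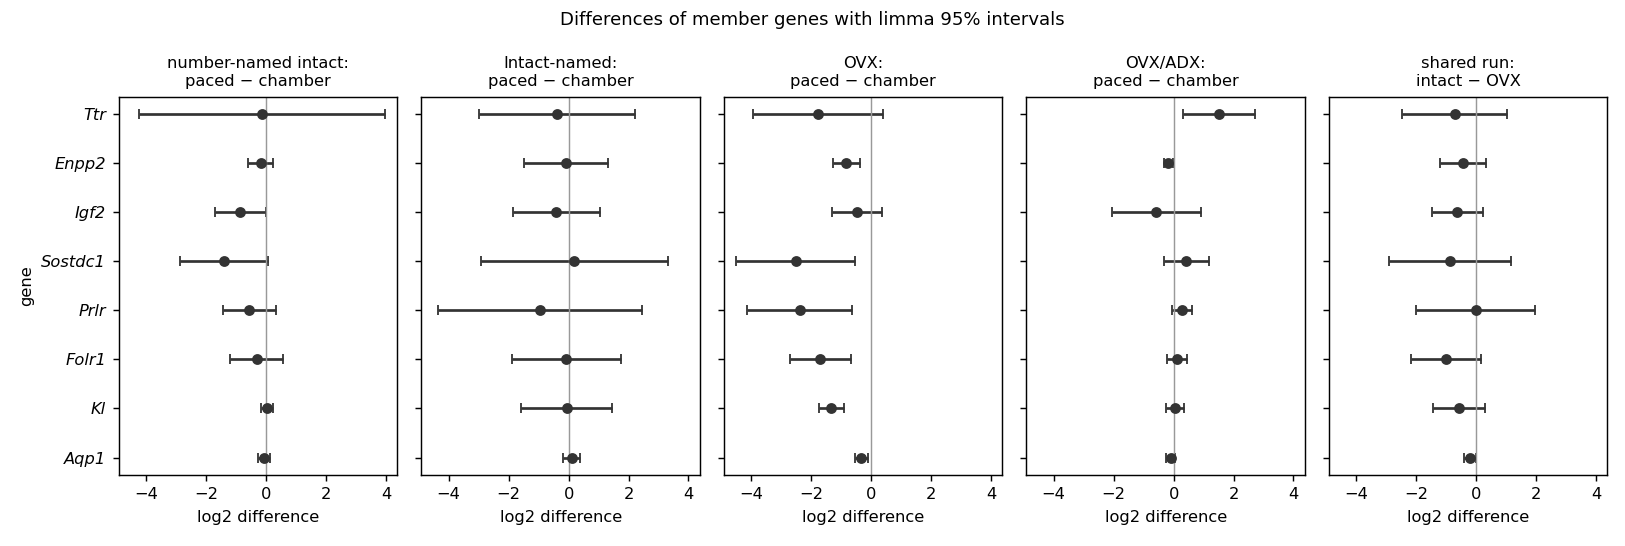
Log2 differences (x axis) of the 8 measured members (y axis) with limma 95% intervals, for paced mated minus chamber-exposed arrays in each of the 4 array sets and for intact minus OVX rats in the shared run. In OVX rats all 8 points lie left of 0, from −2.51 (Sostdc1) to −0.33 (Aqp1), as do all 8 points for intact minus OVX rats and 7 of 8 in the number-named set.

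Over the 24 arrays, with the set as a term, all 8 members were lower on the paced mated arrays, with a median of −0.41, and limma called 0% of the probe sets (1134 at an unadjusted p under 0.05, 0 by the plain test). Prlr differed by −0.91 (SE 0.52; limma adjusted p = 0.969, permutation p = 0.124 within sets). Igf2 differed by −0.58 (SE 0.29, permutation p = 0.0818) and Ttr by −0.20 (SE 0.71, permutation p = 0.801).

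Whether the mating difference itself changed between sets was tested as an interaction. Between OVX and Intact-named rats, within the shared run, all 8 members had a more negative difference in OVX rats, with a median of −1.32, and limma called 2 probe sets (0.0074%), no member among them. For Prlr that interaction was −1.42 (SE 1.84; limma adjusted p = 1), with an interval from −5.47 to 2.62, and for Ttr −1.38 (SE 1.63; limma adjusted p = 1). Between the number-named and Intact-named sets limma called 22 probe sets (0.0814%), and the interaction was 0.41 for Prlr (SE 1.69; limma adjusted p = 0.956) and 0.25 for Ttr (SE 2.38; limma adjusted p = 0.983). Between OVX/ADX and number-named rats it was 0.84 for Prlr (SE 0.46; limma adjusted p = 0.721), and limma called 0% of the probe sets (2030 at an unadjusted p under 0.05, 0 by the plain test).

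Removal of the ovaries was compared with the intact state only within the shared run, with mating as a term. All 8 members were lower in intact than in OVX rats, with a median of −0.59 against 0.01 over all genes, and 0 of 8 had an unadjusted p under 0.05, against 5672 of all probe sets (21%). Limma called 388 probe sets (1.44%), 295 higher and 93 lower in intact rats, none of a member, and 0 without array OVX-4. Folr1 differed by −1.001 (SE 0.53; limma adjusted p = 0.305), with 6.84 ± 1.14 (SD, n = 6) on the intact and 7.84 ± 1.12 (SD, n = 6) on the OVX arrays. Ttr differed by −0.71 (SE 0.81; limma adjusted p = 0.644).

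Prlr was at 8.10 ± 2.20 (SD, n = 6) on the intact and 8.11 ± 1.70 (SD, n = 6) on the OVX arrays, a difference of −0.02 (SE 0.91; limma adjusted p = 0.994, exact permutation p = 0.98 within mating labels). Its 95% interval ran from −1.99 to 1.96, which leaves the direction unsettled. The medians of the meningeal and thalamic markers differed by −0.57 and −0.98 between these groups, and their part in the members' differences was not tested.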

How the data were processed

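RNA of 24 arrays was read from the deposited log2 signals, computed by the authors with RMA (the submitters' processing notes name Affymetrix Expression Console, version 1.4); the paper's methods name GCRMA, which was not analysed here. The genome build was not given in the sources used here. Probe sets were named through GEO's platform annotation, of which 20832 carry 1 symbol, 436 several and 9831 none; 57 control probe sets were left out. Where a gene had several probe sets, that of highest mean signal stands for it. One further probe set shared by Ttr and metallothionein genes was not used. Groups follow the labels for gland, title set and mating.

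Groups were compared with limma 3.58.1 under R 4.3.3 (lmFit and eBayes, Benjamini-Hochberg over 27035 probe sets, threshold 0.05), and tested on simulated data. Correlations used Python 3.11.15 with scipy 1.17.1, on values centred on each title set, with 100000 permutations (seed 1) or all orders within a set of 6. Alternatives were other filters, normalizations, tests, array weights, centrings, and leaving out arrays or sets. The named genes are the members, the 6 brightest further choroid plexus genes, the 10 most like Ttr and Prlr, and leading list genes; Car12, Jak2, Cish, Slc4a2, Dynlrb2, Foxj1 and Igfbp2 were chosen after their values were seen. The members and lists were chosen with earlier results of these data known. The number of arrays limits the precision.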

Additional observations from a re-analysis of the deposited data

Results flagged for a closer look

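In 9 of 32 groups of 6 arrays (8 members in 4 array sets), 1 array stood apart from the other 5 by Dixon's test at the 95% level, whose critical value for 6 arrays is 0.625; chance flags about 1 in 20 groups. Array 2539 of the number-named intact rats stood high for Prlr (9.77), Folr1 (8.29) and Enpp2 (11.998). Array 4125 of the OVX/ADX rats stood high for Prlr (8.10) and Folr1 (7.04), and array 2541 of that set for Sostdc1 (6.73). Array OVX-3 stood low for Ttr (10.22) and Sostdc1 (5.95). Array Intact-4 stood low for Aqp1 (7.15). Thus 2539 and 4125 were high for several members at once, and OVX-3 was low for several.

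The main Prlr probe set was higher on every paced mated array than on every chamber-exposed array in OVX/ADX rats, by 0.29, and lower on every one in OVX rats, by −2.39. The further Prlr probe sets overlapped in OVX/ADX rats, at −0.06 and 0.18, and were lower on every paced mated array in OVX rats. That difference between gland groups was not tested.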

How the results depend on the processing

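None of the differences given above for the main probe sets of members passed an adjusted p of 0.05 in any alternative. The further probe sets of Prlr and Aqp1 were not followed through the alternatives. Pooled over sets, the relations of Prlr with Ttr, Kl, Folr1, Enpp2 and Sostdc1 kept their direction and passed in each alternative. Within single sets they did not all hold. In the OVX/ADX set alone, r was −0.273 (Enpp2), 0.227 (Sostdc1), 0.607 (Kl), 0.637 (Ttr) and 0.896 (Folr1). In the number-named set without the 2 arrays farthest in the other member, r was −0.49 (Ttr), −0.411 (Folr1), −0.387 (Kl), 0.313 (Enpp2) and 0.929 (Sostdc1). In OVX rats all 8 members stayed lower on the paced mated arrays with any 1 array left out. The counts of lower members with 1 array left out were computed after seeing the data, and they ran from 3 to 7 (number-named), 1 to 8 (Intact-named), 8 to 8 (OVX) and 3 to 5 (OVX/ADX). The cause of the changes below was not tested.

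Called probe sets in the number-named set went from 12 to 5 with a filter at the 50th percentile, 4 after quantile normalization, 19 with array medians subtracted, 0 without moderation and 112 with array weights. In the Intact-named set they went from 4 to 0 without moderation and 1016 with array weights. Intact against OVX rats gave 84 without moderation and 719 with array weights in place of 388. For the mating difference between OVX and Intact-named rats, 2 became 1 without moderation, and with array weights Prlr turned to 0.21. Between the number-named and Intact-named sets, 22 became 43 with array medians subtracted, 4 without moderation and 2316 with array weights.

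With 1 array left out, calls ranged from 2 (without 2543) to 58 (without 2539) in the number-named set and from 1 (without Intact-2) to 15 (without Intact-1) in the Intact-named set. They ranged from 0 to 1 (without Intact-5) over both intact sets and from 0 (without OVX-4) to 443 (without OVX-6) between intact and OVX rats. The mating differences gave 1 to 9 (without Intact-1) between OVX and Intact-named, 9 to 346 (without Intact-5) between number-named and Intact-named, and 0 to 25 (without 2541) between OVX/ADX and number-named rats. The difference in Ttr ranged from −1.53 to 1.84 in the number-named set, from −1.46 to 0.44 in the Intact-named set and from −0.49 to 0.22 over the 24 arrays. That in Prlr ranged from −2.44 to 0.14 in the Intact-named set and from −0.75 to 0.56 between intact and OVX rats. The interaction in Prlr ranged from −2.52 to 0.0507 between OVX and Intact-named, and from −0.69 to 1.88 between number-named and Intact-named rats, where that in Ttr ranged from −1.14 to 2.22.

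For Prlr with Igf2, r was 0.42 after quantile normalization, 0.403 centred on 8 groups, 0.374 with probe sets averaged, 0.195 without the Intact-named set and 0.457 without the OVX set, none past the threshold, and it ranged from 0.332 to 0.492 with 1 array left out. For Prlr with Aqp1 it was 0.551 centred on 8 groups and 0.337 without the OVX set, both missing it, and ranged from 0.432 to 0.718. Ttr with Aqp1 gave 0.533 centred on 8 groups and ranged from 0.293 to 0.563, and Ttr with Igf2 from −0.0389 to 0.147.

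Intact and OVX arrays share the numbers 1 to 6. Deviations of same-numbered arrays correlated by 0.0176 to 0.314, not all over 0.1, so the numbers were not taken to pair the arrays. With the replicate block, intact against OVX rats gave 375 calls in place of 388 and the mating difference between OVX and Intact-named rats 1 in place of 2, neither Prlr nor Ttr among them. The 3 arrays a label in each set, and signals near the floor for Kl, limit what could be detected.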
